A study of Mus musculus with 8 samples.

Results

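RNA levels of 10 genes of bone morphogenetic protein (BMP) signalling were compared in cultured palatal mesenchyme: the ligand genes Bmp2, Bmp4 and Bmp7, the antagonist genes Grem1 and Nog, and the target genes Id1, Id2, Id3, Msx1 and Msx2. Each gene was read by its brightest probe set among those with exactly 1 gene symbol, and all 10 were found among the 18193 genes measured. The cells were primary mesenchyme from the palates of C57BL/6J mouse embryos at embryonic day 13.5, harvested at passage 2 in culture. Mutant cells (4 arrays) had the genotype Tgfbr2 fl/fl; Wnt1-Cre, in which Cre driven by Wnt1 removes the floxed part of this TGF-beta receptor gene in the cranial neural crest and its descendants. Control cells (4 arrays) had the genotype Tgfbr2 fl/fl, so they carried the floxed alleles without Cre, and the presence of Cre and the loss of the receptor cannot be told apart. The titles of the control samples call them Tgfbr2 wildtype and name no floxed alleles. Cells that do not descend from the neural crest keep the receptor in this model. The labels do not say whether each sample came from its own embryo, so each p-value rests on the spread among these samples, part of which may be technical.

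BMPs are secreted dimers of the TGF-beta superfamily. They bind type I and type II receptors whose phosphorylated Smads enter the nucleus with Smad4 and switch on the Id and Msx genes, while noggin and gremlin hold the ligands outside the cell. In the developing palate Bmp4 and Msx1 are active in the anterior mesenchyme, and mice without Msx1 have a cleft palate. Id proteins are helix-loop-helix factors without a DNA-binding region that pair with, and so restrain, other factors of that class.

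None of the 10 genes passed the test between genotypes (limma over all 18193 genes with Benjamini-Hochberg adjustment at 0.05), a test that 0.0879% of all genes passed (0.066% of all genes lower and 0.022% higher in mutant cells). At an unadjusted p under 0.05, 3 of the 10 were lower in mutant cells (Bmp2, Id1 and Id3), against 9.69% of all genes, and 0 were higher, against 5.84%. The median difference of the 10 was -0.04 on the log2 scale, with 6 negative and 4 positive, and over all genes it was -0.0078, with 51.7% negative. Values below are log2 intensities, on which a difference of 1 is a doubling, and each interval is the 95% interval of limma. Levels of different genes are not set against each other, since each probe set has its own brightness. In RNA of a mixed culture, fewer cells of a type and less RNA per cell cannot be told apart.

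**Figure D1:**
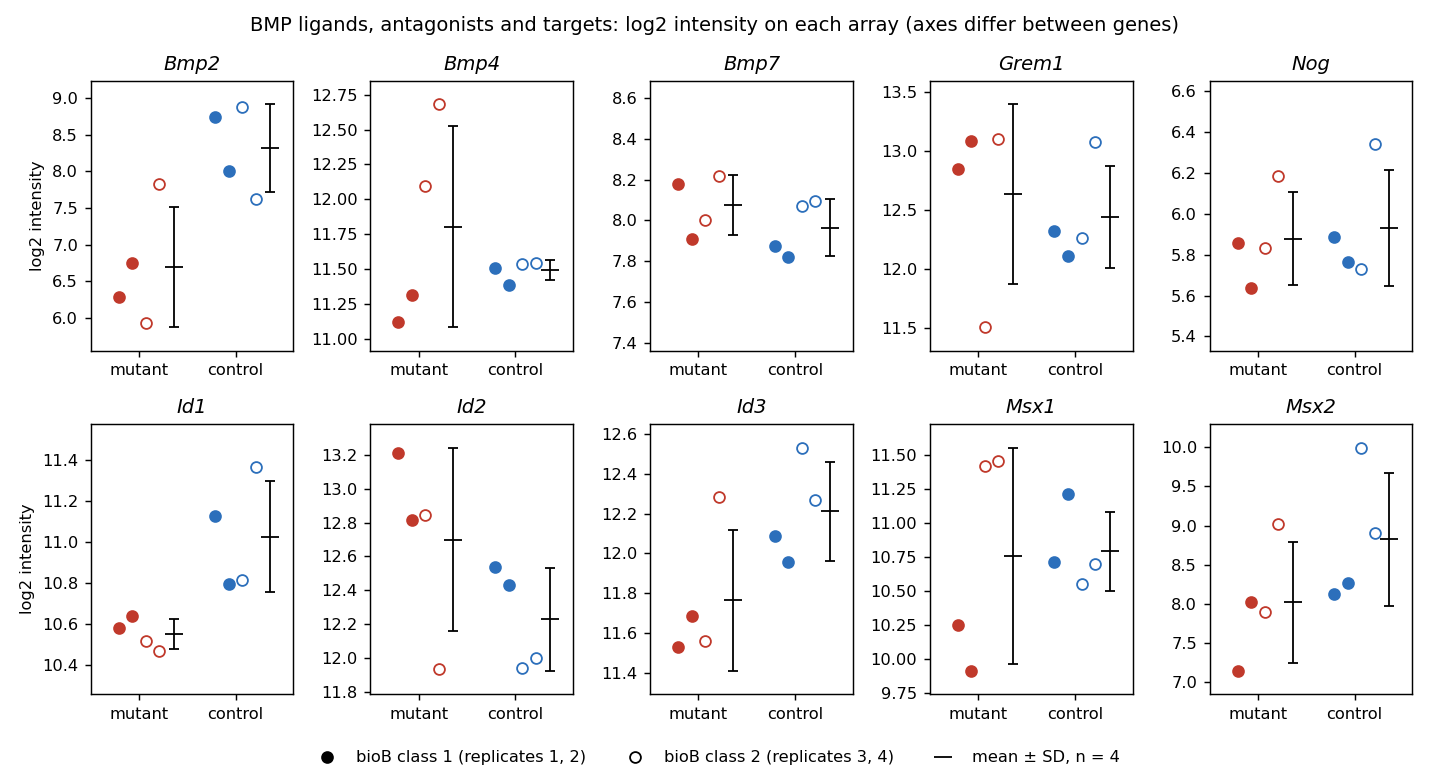
Log2 intensity (vertical axes, which differ between genes) of 10 BMP pathway genes on each of 4 mutant arrays (red, left) and 4 control arrays (blue, right), with the mean and SD beside each group. Filled points are replicates 1 and 2 and open points replicates 3 and 4, the first and second bioB class of the text. The arrays of the genotypes overlapped for every gene except Id1.

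Promoter sequence is shown for Id2, Id3 and Msx2, the 3 genes whose levels varied together most closely over the arrays, Id2 in the opposite direction to the others, as described further on. Each run is the 250 bases before the gene's start, from RefSeq (GRCm38.p6), written 5′ to 3′ on the gene's strand. Capitals mark 3 motifs searched on both strands: GGCGCC, a GC-rich element of BMP Smads, GTCTG or its reverse complement CAGAC, a Smad box, and TAATTA, a homeodomain core. The motifs do not overlap in these windows.
Id2 (chr12:25096093-25096342, reverse strand): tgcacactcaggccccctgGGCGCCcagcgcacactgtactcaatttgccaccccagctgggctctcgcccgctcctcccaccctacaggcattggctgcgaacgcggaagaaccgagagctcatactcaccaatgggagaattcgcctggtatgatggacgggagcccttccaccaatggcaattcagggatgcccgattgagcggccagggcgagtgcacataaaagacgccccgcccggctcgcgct
Id3 (chr4:136143572-136143821, forward strand): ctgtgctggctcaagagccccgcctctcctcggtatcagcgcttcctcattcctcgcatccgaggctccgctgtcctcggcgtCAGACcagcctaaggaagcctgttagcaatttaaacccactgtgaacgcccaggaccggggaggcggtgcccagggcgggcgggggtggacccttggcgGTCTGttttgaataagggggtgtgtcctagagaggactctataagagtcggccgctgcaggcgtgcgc
Msx2 (chr13:53472781-53473030, reverse strand): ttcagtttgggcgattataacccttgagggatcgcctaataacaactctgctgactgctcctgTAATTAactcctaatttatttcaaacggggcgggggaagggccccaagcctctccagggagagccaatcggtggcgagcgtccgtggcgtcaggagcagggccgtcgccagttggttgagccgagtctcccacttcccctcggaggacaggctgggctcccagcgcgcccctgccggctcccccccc
Id2 held 1 GGCGCC match, beginning 231 bases before the start. Id3 held 2 Smad boxes, beginning 167 and 68 bases before it, and Msx2 held 1 TAATTA, beginning 187 bases before it. Among 32851 promoter windows of the same length, GGCGCC was present in 9.59%, the Smad box in 42.2% and TAATTA in 4.84%. A match is a description of the letters and not of binding. Promoter windows were matched for 6 of the 10 genes. The other windows of that set gave 1 GGCGCC and 1 Smad box for Grem1, beginning 78 and 219 bases before its start, and 0 matches for Bmp4 and Msx1.

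Array controls and marker genes set some arrays apart before any comparison of genotypes. In both genotypes, replicates 1 and 2 had bioB hybridisation controls of 6.34 to 6.52, and replicates 3 and 4 had 8.24 to 8.79; these are called the first and second bioB class. The labels name no batch, and the classes rest on this control alone. The poly-A labelling controls read 6.34 to 6.91 on mutants 3 and 4 and control 3, and 7.65 to 8.15 on the others. Genes of mesenchyme such as Prrx1, Col1a2 and Vim were bright, with 13 of 16 above the median of all probe sets (6.93) on every array, among them the palate genes Shox2 and Osr1, which averaged 11.69 and 10.24. The palate genes Osr2 and Tbx22 averaged 6.63 and 4.91. Meox2, another of them, read 5.77 on control 4 against an average of 8.73 over the 8 arrays. The mean of the 16 mesenchyme genes was also lowest on control 4, at 10.98 against 11.25 to 11.75 on the other arrays. Macrophage and leukocyte genes were also bright, 19 of 21 above that median on all 8 arrays, with Cd163 below it on every array. Their mean was 12.73 on each of mutants 1, 2 and 3 and 10.65 on mutant 4, against 11.93, 12.15, 10.77 and 10.64 on controls 1 to 4. It averaged 12.21 ± 1.04 in mutant and 11.37 ± 0.78 in control arrays (SD, n = 4 each). All 21 genes had a higher mean in mutant arrays, against 8795 of 18193 over all genes. None of the 21 passed the limma test, and the genotypes overlapped for each of them. At an unadjusted p under 0.05 in limma 5 of the 21 were higher, against 5.84% of all genes. The macrophage mean thus goes in part with genotype, and a fit adjusted for it cannot tell the 2 fully apart. Of 9 endothelial and 9 epithelial genes, 1 and 2 lay above the median on every array. Control 3 had Xist at 11.48 and Eif2s3y at 4.62, and the other arrays had Xist at 5.93 to 6.59. The brightest of 3 Tgfbr2 probe sets read 12.42 ± 0.47 in mutant and 12.04 ± 0.40 in control arrays (SD, n = 4 each). The mean of its probe sets differed by 0.17. The labels do not say whether these probes fall inside the part that Cre removes, so the values do not check the genotypes.

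Among the ligands, Bmp2, an inducer of bone formation, had the widest gap between genotypes. It read 6.29, 6.75, 5.93 and 7.82 in mutants 1 to 4, against 8.74, 8.01, 8.88 and 7.63 in controls 1 to 4. Mutants 1 to 3 lay below every control and below the median probe set, and mutant 4 lay above control 4. The means were 6.70 ± 0.82 in mutant and 8.32 ± 0.60 in control arrays (SD, n = 4 each). The difference of -1.62 (SE 0.43, interval -2.62 to -0.62) had adjusted p = 0.189 in limma. No fold is given, since the table holds no detection calls and whether mutants 1 to 3 lay above background was not determined. It was -1.86 in the first bioB class and -1.38 in the second. Without mutant 4 Bmp2 passed the limma test, with a difference of -1.995 and adjusted p = 0.0222, and so did Id3, 2 of the 10 genes against 7.23% of all genes in that fit. With array weights Bmp2 alone of the 10 passed (adjusted p = 0.0220 in limma), against 8.08% of all genes. Mutant 4 was the mutant array with the lowest macrophage marker mean, and after adjustment for that mean Bmp2 differed by -1.26 (adjusted p = 0.201 in limma).

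Bmp4, the main BMP ligand of the palatal mesenchyme, spread widely among mutant cells. It read 11.13, 11.32, 12.10 and 12.68 in mutants 1 to 4, against 11.51, 11.39, 11.54 and 11.55 in controls 1 to 4. Mutants 1 and 2 lay below all controls and mutants 3 and 4 above them, so the SD was 0.72 in mutant and 0.07 in control arrays (n = 4 each). The difference was 0.31 (SE 0.31, interval -0.41 to 1.02, adjusted p = 0.668 in limma), and it was -0.23 in the first bioB class and 0.85 in the second. With 1 array left out it ran from 0.017 without mutant 4 to 0.54 without mutant 1. The mutants split in the same way as the bioB classes, and a technical part of this spread cannot be told apart from that of the cultures.

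Bmp7, a ligand used in kidney and eye development, was close to level between genotypes. It read 7.91 to 8.22 in mutants, against 7.82 to 8.09 in controls. The groups overlapped, and the difference was 0.11 (SE 0.10, interval -0.12 to 0.35, adjusted p = 0.639 in limma). Both dimmer Bmp7 probe sets, with group means from 4.75 to 5.22, differed by -0.05 and 0.04.

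Grem1, the antagonist gremlin, which binds Bmp2 and Bmp4, was bright in both genotypes. It read 12.85, 13.09, 11.50 and 13.10 in mutants 1 to 4, against 12.32, 12.11, 12.27 and 13.08 in controls 1 to 4. Mutants 1, 2 and 4 lay above controls 1 to 3, and mutant 3 lay below every control. The difference was 0.19 (SE 0.38, interval -0.67 to 1.05, adjusted p = 0.843 in limma). It was 0.75 in the first bioB class and -0.37 in the second, which holds mutant 3 and control 4. With 1 array left out it ran from 0.037 without mutant 4 (0.041 without mutant 2) to 0.57 without mutant 3, with adjusted p = 0.971, 0.976 and 0.487 in limma.

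Nog, which encodes noggin, was dim, below the median of all probe sets on all 8 arrays. It read 5.64 to 6.18 in mutants and 5.73 to 6.34 in controls, with a difference of -0.05 (SE 0.16, interval -0.43 to 0.32, adjusted p = 0.907 in limma). The deposited table gives no detection calls, so whether these values lie above background was not determined.

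Id1, a direct target of BMP Smads, was the only one of the 10 genes whose arrays did not overlap, against 8.07% of all genes (5.18% lower and 2.89% higher in mutant cells). It read 10.58, 10.64, 10.51 and 10.47 in mutants 1 to 4, against 11.13, 10.80, 10.82 and 11.37 in controls 1 to 4. The mutants lay close together below the lowest control, with means of 10.55 ± 0.07 in mutant and 11.03 ± 0.27 in control arrays (SD, n = 4 each). The difference was -0.48 (SE 0.13, interval -0.78 to -0.17, adjusted p = 0.190 in limma). It was -0.35 in the first bioB class, -0.60 in the second and -0.46 after adjustment for the macrophage mean. With 1 array left out it ran from -0.55 without control 2 to -0.36 without control 4.

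Id3, which shares the helix-loop-helix fold with Id1, was lower in 3 of the 4 mutants. It read 11.53, 11.68, 11.56 and 12.28 in mutants 1 to 4, against 12.09, 11.96, 12.53 and 12.27 in controls 1 to 4. Mutants 1 to 3 lay below every control, and mutant 4 lay among them. The difference was -0.45 (SE 0.19, interval -0.89 to -0.01, adjusted p = 0.314 in limma), and it was -0.42 and -0.48 in the first and second bioB class. Without mutant 4 it was -0.62, with adjusted p = 0.0424 in limma. Without control 3 it was -0.34, and after adjustment for the macrophage mean -0.19 (adjusted p = 0.357 in limma).

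Id2, another member of the Id family, had the opposite sign to Id1 and Id3. It read 13.21, 12.81, 12.84 and 11.93 in mutants 1 to 4, against 12.54, 12.43, 11.94 and 11.999 in controls 1 to 4. Mutants 1 to 3 lay above every control and mutant 4 below every control. The difference was 0.47 (SE 0.27, interval -0.15 to 1.09, adjusted p = 0.435 in limma), with 0.53 and 0.42 in the bioB classes. The other Id2 probe sets had the same sign, with differences of 0.46 and 1.02. Adjusted for the macrophage mean, the Id2 difference was 0.10 (interval -0.19 to 0.38, adjusted p = 0.719 in limma).

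**Figure D2:**
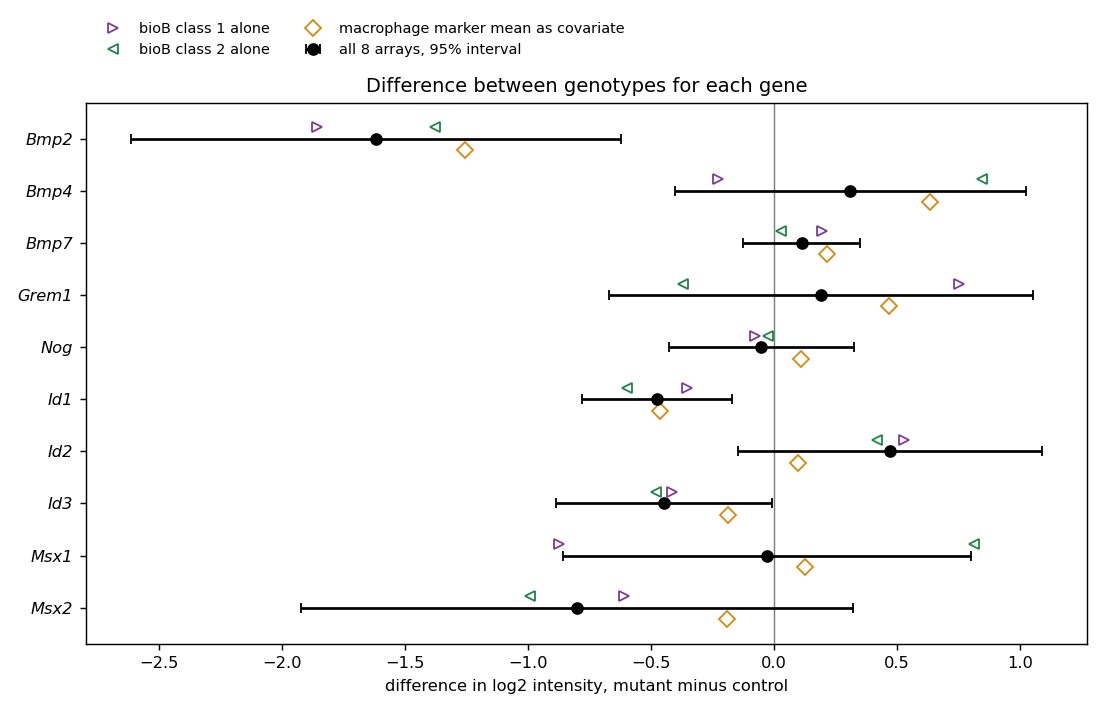
Difference in log2 intensity, mutant minus control (horizontal axis), for each of 10 genes, as the estimate over all 8 arrays with its 95% interval (black), within each bioB class (triangles) and with the macrophage marker mean as a covariate (diamonds). Bmp2, Id1, Id3 and Msx2 lay below 0 in all 4 estimates, and the classes lay on opposite sides of 0 for Bmp4, Grem1 and Msx1.

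Msx1, the homeobox gene needed for palate closure in mice, split the mutants as Bmp4 did. It read 10.25, 9.91, 11.42 and 11.45 in mutants 1 to 4, against 10.71, 11.21, 10.55 and 10.69 in controls 1 to 4. Mutants 1 and 2 lay below every control and mutants 3 and 4 above every control. The difference was -0.03 (SE 0.36, interval -0.86 to 0.80, adjusted p = 0.977 in limma), from -0.88 in the first bioB class and 0.81 in the second. The dimmer Msx1 probe set read 8.41, 8.37, 9.36 and 9.45 in mutants 1 to 4, with the same split, against 8.78 to 9.17 in controls. The brighter probe set is of a type that can match more than 1 transcript family.

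The difference between the classes was itself tested as an interaction of genotype and bioB class. For Msx1 the genotype difference was higher by 1.69 in the second class (SE 0.27, unadjusted p = 0.000604) and for Bmp4 by 1.07 (SE 0.27, unadjusted p = 0.00674). These 2 of the 10 genes had an unadjusted p under 0.05, against 4.38% of all genes. Neither passed over all genes, with adjusted p = 0.875 and 1.00 in limma, nor did any of the 18193 genes tested. Within the first class alone 3 of the 10 genes passed the limma test, against 11.5% of all genes: Bmp2 (adjusted p = 0.0106), Grem1 (0.0167) and Msx1 (0.0356). Within the second class 0 of the 10 passed in limma and 2 (Bmp4 and Msx1) had an unadjusted p under 0.05, against 5.21% of all genes. Both fits rest on 2 arrays of each genotype.

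Msx2, the second homeobox target, which acts in skull and tooth development, was lower on average with a wide spread. It read 7.15, 8.02, 7.89 and 9.03 in mutants 1 to 4, against 8.13, 8.27, 9.995 and 8.91 in controls 1 to 4. Mutants 1 to 3 lay below every control and mutant 4 above 3 of the 4. The difference was -0.80 (SE 0.49, interval -1.93 to 0.32, adjusted p = 0.465 in limma), with -0.61 and -0.99 in the bioB classes. It was -0.41 without control 3 and -1.14 without mutant 4. Adjusted for the macrophage mean, it was -0.19 (adjusted p = 0.790 in limma). The other Msx2 probe set was dim, at 4.45 in mutants and 4.46 in controls.

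Id2, Id3 and Msx2, whose promoters are printed above, varied together over the 8 arrays. Id3 and Msx2 had Pearson r = 0.926 (exact permutation p = 0.000446, adjusted 0.0112 over the 45 pairs of the 10 genes) and Spearman rho = 0.976 (exact p = 0.000397). Id2 and Id3 had r = -0.948 (exact p = 0.00122, adjusted 0.0182) and rho = -0.952 (exact p = 0.00114). Id2 and Msx2 had r = -0.923 (exact p = 0.000496, adjusted 0.0112) and rho = -0.976 (exact p = 0.000397). These were the 3 pairs of the 45 with an adjusted p under 0.05, all tests two-sided. They are made of the same 3 genes and so are not separate results. The share of all gene pairs with such an r was not determined. The permutation treats the 8 arrays as exchangeable, although they fall into genotypes and bioB classes. After the genotype means were taken off, r was 0.915 for Id3 with Msx2, -0.936 for Id2 with Id3 and -0.897 for Id2 with Msx2. After the class means were taken off as well, it was 0.848, -0.889 and -0.762, given as a description. Without the 2 arrays farthest from the median of the first gene named, r was 0.884, -0.950 and -0.891. A bioB class or a genotype holds 4 arrays, too few for a value within it. Bmp4 and Msx1 had r = 0.761 (exact permutation p = 0.0200, adjusted 0.180) and rho = 0.762 (exact p = 0.0368), and r was 0.456 without mutants 3 and 4.

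The same 3 genes split the arrays as the macrophage markers did. Mutant 4 and controls 3 and 4, with the lowest macrophage means, are all of the second bioB class, which also holds mutant 3. Among controls the macrophage mean and the bioB class therefore cannot be told apart. On mutant 4 and controls 3 and 4, where the macrophage mean was 10.64 to 10.77, Id2 read 11.93, 11.94 and 11.999. On the other 5 arrays, where that mean was 11.93 to 12.73, Id2 read 12.43 to 13.21. Id3 read 12.28, 12.53 and 12.27 on the first 3 arrays and 11.53 to 12.09 on the other 5, and Msx2 read 9.03, 9.995 and 8.91 against 7.15 to 8.27. For each of the 3 genes the ranges did not overlap. The share of all genes that split these arrays in this way was not determined, so the split is not shown to be particular to them. The arrays fall into separate clusters by this mean, so no correlation with it is given. Id1 followed no such order, with 10.47 on mutant 4, the lowest of all, and 11.37 on control 4, the highest. In the fit with the macrophage mean as covariate, 0 of the 10 genes passed in limma, against 0.302% of all genes, and Bmp2, Bmp4, Bmp7 and Id1 had an unadjusted p under 0.05, 4 of 10 against 17.5% of all genes. The part of these cells in the levels of Id2, Id3 and Msx2 was not tested.

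**Figure D3:**
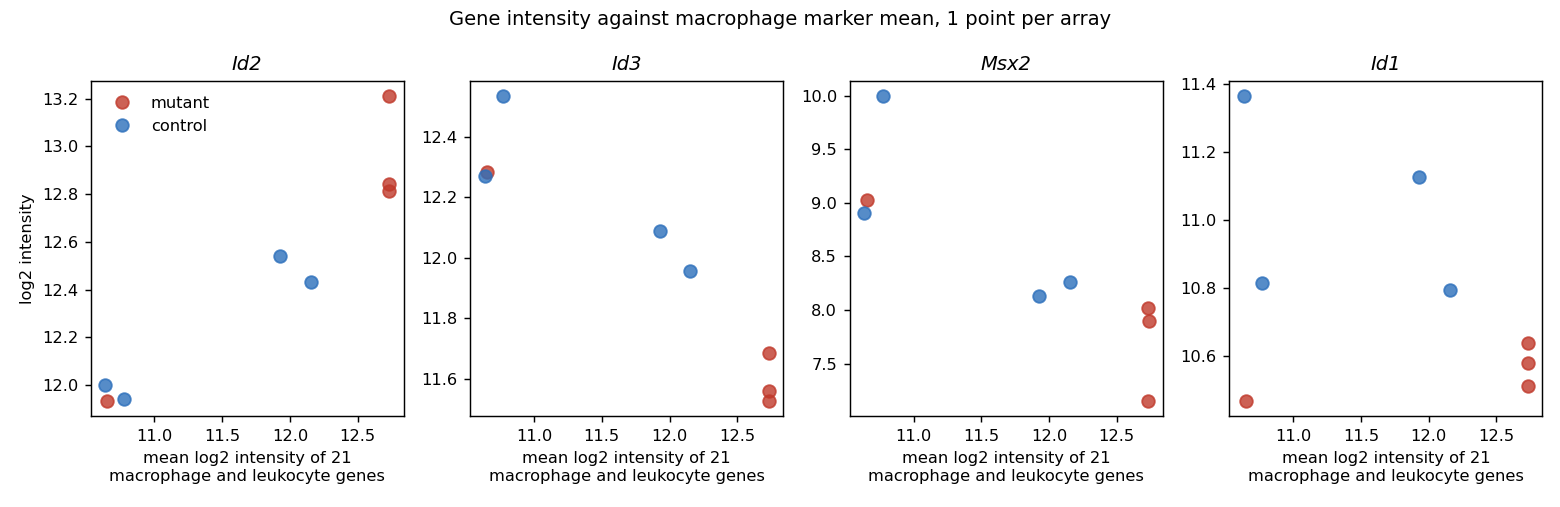
Log2 intensity of Id2, Id3, Msx2 and Id1 (vertical axes) against the mean log2 intensity of 21 macrophage and leukocyte genes (horizontal axes), 1 point for each mutant (red) and control (blue) array. Id2 was higher, and Id3 and Msx2 lower, on the 5 arrays with a macrophage mean of 11.93 or more, and mutant 4 lay with controls 3 and 4. Mutant 4 and controls 3 and 4 are of the second bioB class, as is mutant 3.

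For the 3 genes with the smallest p, the genes with the most similar pattern were sought among 11712 others brighter than the median probe set, after the mean of each genotype was taken off. Bmp2 was most like Cd9 (r = 0.986), Usp53 (r = 0.982) and Slc16a3 (r = 0.981). Id1 was most like Cinp (r = 0.983), Fancm (r = 0.973) and Ttc14 (r = 0.957), and Id3 was most like Rela (r = 0.995), Shb (r = 0.993) and Klc3 (r = 0.992). These are the highest of 11712 values for each gene, so a high r is in part a result of that choice. The means of the bioB classes were not taken off, and the share of genes with such an r was not determined. These values describe 8 arrays and no shared role.

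A wider list of 55 other BMP pathway genes, of which 50 were measured, was fitted in the same way. None passed the limma test over all genes, and at an unadjusted p under 0.05 5 of 50 were lower, against 9.69% of all genes, and 2 higher, against 5.84%. The median difference was -0.11, with 35 negative and 15 positive, against 51.7% negative over all genes. In the fit that holds the macrophage mean it was 0.0024, with 24 negative and 26 positive, and the median of the 10 genes described above was 0.10, against 0.012 over all genes. The arrays did not overlap for 4 of 50 genes lower in mutant cells, against 5.18% of all genes, and for 1 higher, against 2.89%.

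**Figure D4:**
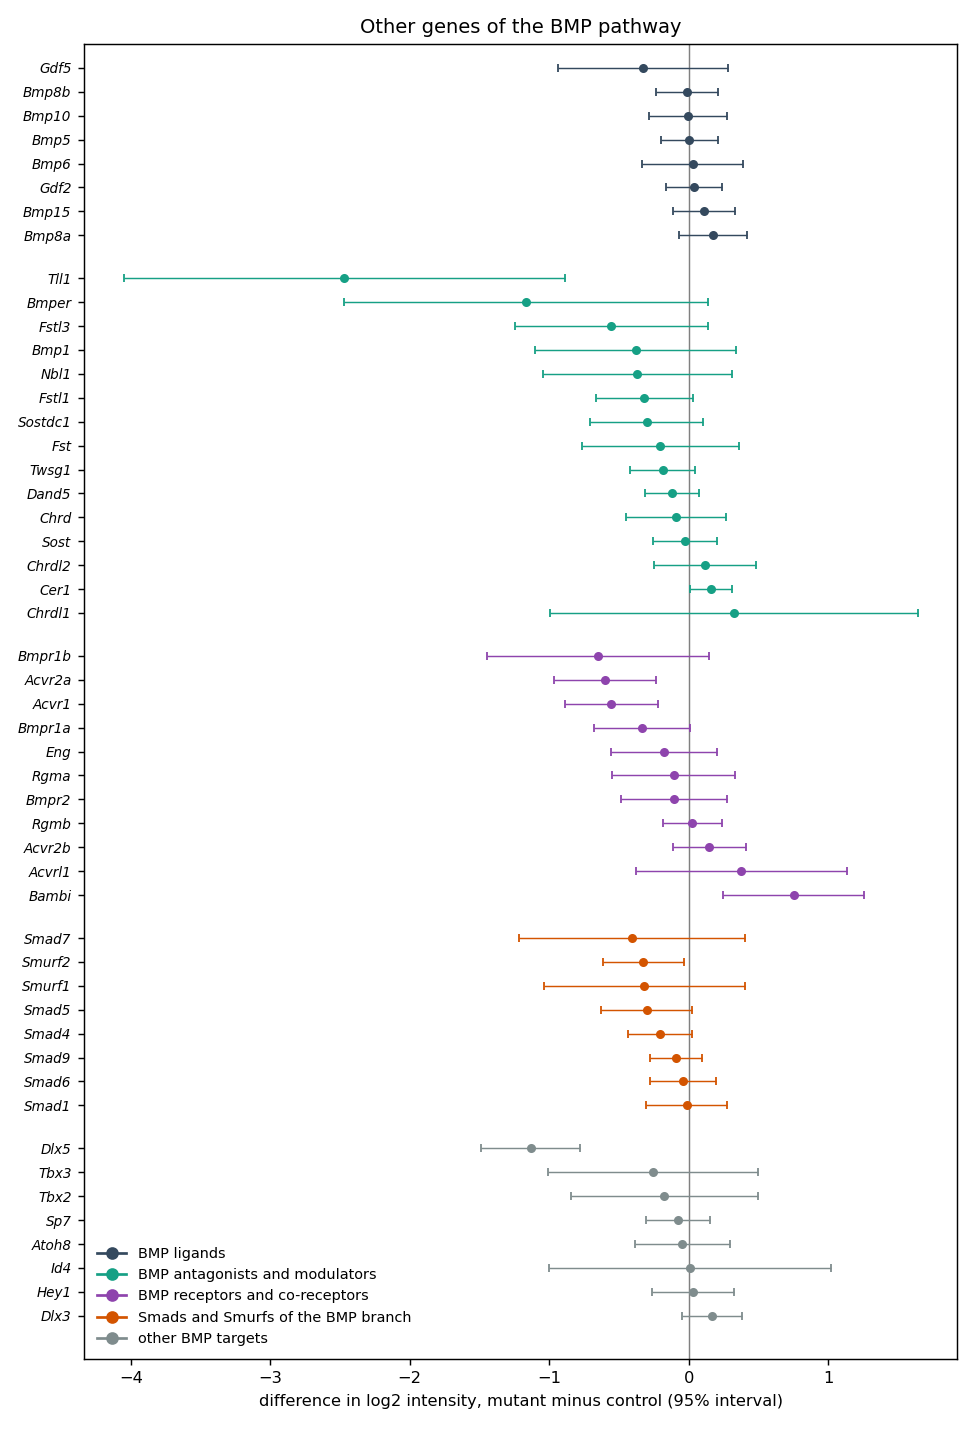
Difference in log2 intensity, mutant minus control, with its 95% interval (horizontal axis) for 50 other genes of the BMP pathway, grouped by role and coloured by group. Most intervals crossed 0, and Dlx5, Tll1, Acvr1, Acvr2a and Smurf2 lay below it with Cer1 and Bambi above.

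Of the 8 measured genes for other ligands, 0 reached an unadjusted p under 0.05 in limma and 0 passed over all genes. The median difference was 0.02, with 3 negative and 5 positive. Bmp8a differed by 0.18 and Bmp15, a ligand of the oocyte, by 0.11. Gdf5, a ligand of joint formation, differed by -0.33, by -0.10 without control 3, by -0.53 without mutant 4 and by -0.0053 after adjustment for the macrophage mean. Of the 8, Bmp8a and Gdf2 were brighter than the median probe set on every array.

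Of the 15 measured antagonists and modulators, 12 were negative and 3 positive, with a median of -0.20. Tll1, a tolloid-like protease that cleaves the antagonist chordin, read 4.96, 5.87, 5.55 and 7.22 in mutants 1 to 4, against 7.32, 7.36, 8.73 and 10.07 in controls 1 to 4. Its difference was -2.47 (SE 0.69, adjusted p = 0.190 in limma), and the highest mutant lay just below the lowest control. Mutants 1 to 3 lay below the median probe set, and whether they lay above background was not determined. Without mutant 4 Tll1 differed by -2.91, with adjusted p = 0.0422 in limma. Without control 4 it differed by -1.90 (adjusted p = 0.247 in limma), and after adjustment for the macrophage mean by -1.54 (adjusted p = 0.142). Fstl1, a secreted follistatin-like glycoprotein, differed by -0.32 (adjusted p = 0.353). Cer1, an antagonist of early embryos, was dim at 5.94 ± 0.07 in mutant and 5.79 ± 0.03 in control arrays (SD, n = 4 each). It lay below the median probe set on every array, and whether it lay above background was not determined. Its difference was 0.16 (adjusted p = 0.306 in limma), 0.11 with quantile normalisation and 0.10 as the mean of its probe sets.

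Of 11 receptors and co-receptors, 7 were negative and 4 positive, with a median of -0.11. Acvr1, a type I receptor that also binds Bmp7, read 10.36, 10.67, 10.11 and 10.51 in mutants 1 to 4, against 11.25, 10.91, 10.77 and 10.94 in controls 1 to 4. The groups did not overlap, and the difference was -0.55 (SE 0.15, adjusted p = 0.189 in limma), with -0.57 and -0.54 in the bioB classes. The mean of its 3 probe sets differed by -0.22 (adjusted p = 0.328 in limma). Acvr2a, a type II receptor, read 8.32, 8.65, 8.65 and 8.59 in mutants 1 to 4, against 9.23, 9.50, 9.14 and 8.74 in controls 1 to 4. It differed by -0.60 (SE 0.16, adjusted p = 0.189 in limma), again without overlap, and by -0.88 and -0.32 in the classes. Bambi, a pseudoreceptor that blocks the pathway, read 9.57 to 10.57 in mutants and 9.12 to 9.59 in controls (adjusted p = 0.200 in limma). Its difference was 0.75, and 0.49 after adjustment for the macrophage mean.

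All 8 Smads and Smurfs were negative, against 51.7% of all genes, with a median of -0.25. Smad1 and Smad6 were close to level, at -0.01 and -0.04. Only Smurf2 had an unadjusted p under 0.05 in limma. Smurf2, a ubiquitin ligase that marks Smads and receptors for breakdown, differed by -0.33 (SE 0.13, adjusted p = 0.282 in limma). Smad5, which carries the BMP signal, differed by -0.30 and Smad4, the shared partner, by -0.21 (adjusted p = 0.353 and 0.359 in limma). Their intervals reached 0.03 and 0.02. After adjustment for the macrophage mean Smurf2 differed by -0.18 and Smad4 by -0.10, and Smad5 differed by -0.54 and -0.064 in the bioB classes.

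Of the 8 measured other targets, Dlx5, a homeobox gene of the jaw and skull, came closest to the threshold. It read 6.54, 6.87, 7.09 and 6.48 in mutants 1 to 4, against 8.13, 7.82, 7.80 and 7.76 in controls 1 to 4. Mutants 1, 2 and 4 lay below the median probe set, and whether they lay above background was not determined. The groups did not overlap, and the difference was -1.13 (SE 0.15, interval -1.49 to -0.78, adjusted p = 0.0607 in limma), with -1.27 and -0.99 in the bioB classes. After adjustment for the macrophage mean it was -1.27 (adjusted p = 0.0295 in limma). Over 19 alternatives its adjusted p ran from 0.00676 to 0.819, and it passed in 5 of them. Without mutant 4 it differed by -1.04, with adjusted p = 0.0173 in limma. Dlx3, its relative, differed by 0.17 and Sp7, an osteoblast factor, by -0.08 (adjusted p = 0.419 and 0.745 in limma).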

How the data were processed

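Biotin-labelled RNA of 8 samples was measured on Affymetrix mouse arrays, per the labels. The authors deposited 1 log2 intensity for each probe set on each array, and the submitters' processing notes name RMA, a method that corrects background, normalises by quantiles and summarises probes. Its version is not stated there. The values ran from 3.21 to 15.18 and were used as deposited. The arrays hold 45101 probe sets: 64 controls, 34945 with a single gene symbol, 932 with several and 9160 outside the gene table. Symbols were updated by Entrez identifier (34741 matched). The brightest probe set stood for each of 18193 genes.

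Genotypes were compared (mutant minus control) by the two-sided moderated test of limma 3.58.1 under R 4.3.3, without covariates. P-values were adjusted by Benjamini-Hochberg across the 18193 genes, and 0.05 was the threshold. The number of arrays limits the precision. Groups came from the titles. The genes, lists and rules were chosen with earlier results of these data known. Named genes were the 10 members, up to 3 with the smallest p in each group of the wider list, the 3 genes most like each of 3 members, and Tgfbr2; Gdf2 was named after its values were seen. The other 5 genes of the wider list were not analysed here. Arrays were split into classes at the widest gap of the bioB and of the poly-A controls; the labels name no batch. Correlations used exact permutation over the arrays (scipy 1.17.1). Alternatives covered blocks, classes, normalisation, probe sets, dim genes, the prior, weights, thresholds, the macrophage covariate and omission of single arrays. The fit was tested on simulated data with independent noise for each gene and array. Those data held no bioB classes and no macrophage differences, so that test does not show how the fit handles them. The closest arrays, controls 1 and 2, differed by an SD of 0.19 and had 41 identical values, so none was a copy.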

Additional observations from a re-analysis of the deposited data

Results flagged for a closer look

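Among the mutant arrays Grem1 read 11.50 on mutant 3, far from the other mutants, whose nearest value was 12.85. The gap to that neighbour was 0.843 of the range of the mutants by Dixon's test, above its 95% critical value for 4 samples. In all, 20 groups of 4 arrays were checked, 2 for each gene, and chance alone marks about 1 in 20. Without mutant 3 the Grem1 difference was 0.57 (adjusted p = 0.487 in limma), against 0.19 with it.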

How the results depend on the processing

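With 1 array left out, the 10 genes gave 0 to 2 calls, the wider BMP list 0 to 4 and all genes 0 to 1316, each highest without mutant 4; omitting control 4 gave 31 calls over all genes, and omitting any of the other 6 gave 0 to 2. With 16 genes called in the fit as reported, all genes gave 0 with the replicate block, 2 with the poly-A class as a block, 55 with the macrophage covariate and 41 at a threshold of 0.1. The first bioB class alone gave 2085 calls, of which 9 were on the wider list and 3 among the 10 genes, and the second 0. Array weights gave 1470, with 9 and 1 (Bmp2, adjusted p = 0.0220 in limma). The wider list had 1 call with the trend and robust prior, with the covariate and at a threshold of 0.1. No other alternative moved these counts by over 1.5 times, and the test between classes gave 0 calls in each of 3 alternatives chosen after seeing the data. The causes were not tested.

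Some differences changed sign. Msx1 read 0.14 without mutant 1, 0.25 without mutant 2, 0.11 without control 2, 0.81 in the second class, 0.0055 with quantile normalisation and 0.12 with the covariate, and its leave-one-out range was -0.26 to 0.25. Nog read 0.028 without mutant 2, 0.085 without control 4 and 0.11 with the covariate, with a leave-one-out range of -0.15 to 0.085. In the first class Bmp4 read -0.23 and Bmp15 -0.0034, and in the second Grem1 read -0.37 and Sp7 0.020. The dimmer Bmp7 probe set read -0.049, and Tgfbr2 read -0.020 with the covariate. Bmp2, Id1, Id2, Id3 and Msx2 kept their sign in every alternative run. Same-numbered mutant and control arrays correlated at 0.47, 0.42, -0.09 and 0.37 after group means were taken off, so the numbers were not taken to pair the samples. With the replicate block Bmp2 differed by -1.62 (adjusted p = 0.183 in limma). RMA values carry no detection calls, so signal over background limits what the dim Nog values can show. The same limit holds for the mutant values of Bmp2, Tll1 and Dlx5 that lay below the median probe set, and for Cer1, which lay below it on every array.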
